A study of Mus musculus with 12 samples.

Results

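The genes described here are 8 secreted factors of the VEGF and angiopoietin families, Vegfa, Vegfb, Vegfc, Vegfd, Angpt1, Angpt2, Angptl2 and Angptl4, in mouse melanoma tumours. They were taken by name, as the brightest probe set of each gene, and all 8 had exactly 1 probe set, out of 909 genes with a named probe set and 1246 probe sets on a focused Affymetrix array. The study used 12 arrays in 4 groups of 3. Tm1N3 melanoma cells, labelled as expressing galectin-3, were grown in Gal3 -/- mice and in wild-type (WT) mice. Tm1G3 melanoma cells, labelled as galectin-3 silenced, were likewise grown in Gal3 -/- mice and in WT mice. Galectin-3 is a sugar-binding protein encoded by Lgals3, which tumour cells and host cells both make. The series text describes syngeneic hosts, a melanoma line that had silenced the gene and a plasmid coding for it. Which of the lines carried the plasmid, whether a line is a single clone, and the age and strain of the mice are not given in the sources used here. The arrays measured whole tumour RNA, so tumour, vessel, stromal and immune cells contributed together, and fewer cells of a type and less RNA per cell cannot be told apart. Each array's title carries a leading number of its own, but no label says that these number animals, so every p-value reflects array-to-array spread that may be technical.

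Vessel growth in a tumour is driven by VEGF ligands, of which Vegfa is the main inducer of endothelial sprouting and permeability and is itself induced by low oxygen. Vegfb acts on the VEGF receptor encoded by Flt1, and Vegfc and Vegfd act mainly on lymphatic endothelium through the receptor encoded by Flt4. Angpt1 steadies mature vessels through the endothelial receptor encoded by Tek, and Angpt2, which activated endothelial cells release, can oppose it and loosen vessels. Angptl2 and Angptl4 share the angiopoietin protein layout but do not act through that receptor. Angptl2 is known as an inflammatory factor of stromal and tumour cells, and Angptl4 as an inhibitor of lipoprotein lipase that rises with fasting and low oxygen.

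All levels below are log2 RMA values, a scale on which 1 unit is a doubling of signal. Probe sets differ in how brightly they report, so apart from a mention of low signal, a level is set only against the same gene on other arrays. Lgals3, which defines both factors, averaged 9.86 ± 0.62 in Tm1N3 tumours of Gal3 -/- hosts and 9.97 ± 0.37 in Tm1N3 tumours of WT hosts (SD, n = 3 each). It averaged 9.31 ± 0.43 in Tm1G3 tumours of Gal3 -/- hosts and 9.61 ± 0.34 in Tm1G3 tumours of WT hosts (SD, n = 3 each). The lines overlapped (limma, adjusted p = 0.376). The hosts overlapped too, at 8.98 to 10.55 in Gal3 -/- hosts and 9.33 to 10.39 in WT hosts. Tm1G3 tumours of Gal3 -/- hosts, by the labels silenced cells in a knockout host, had the lowest mean but overlapped every other group. The suffix of the Lgals3 probe set marks, in Affymetrix naming, probes shared between transcripts, so a related transcript may add to its signal. The Lgals3 values therefore do not check the labels of lines or hosts, and directions below are those of the labels. Any pair of arrays correlated between 0.976 and 0.998 across probe sets. The WT Tm1G3 replicate 1 array stood apart in neutrophil genes, with Il1b, an inflammatory cytokine gene, at 11.08 where the other arrays lay between 5.92 and 7.49. Both replicate 3 arrays of Tm1N3 tumours stood apart in fibroblast genes, which averaged 9.06 and 8.87 there against 6.82 to 8.37 on the other arrays.

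**Figure D1:**
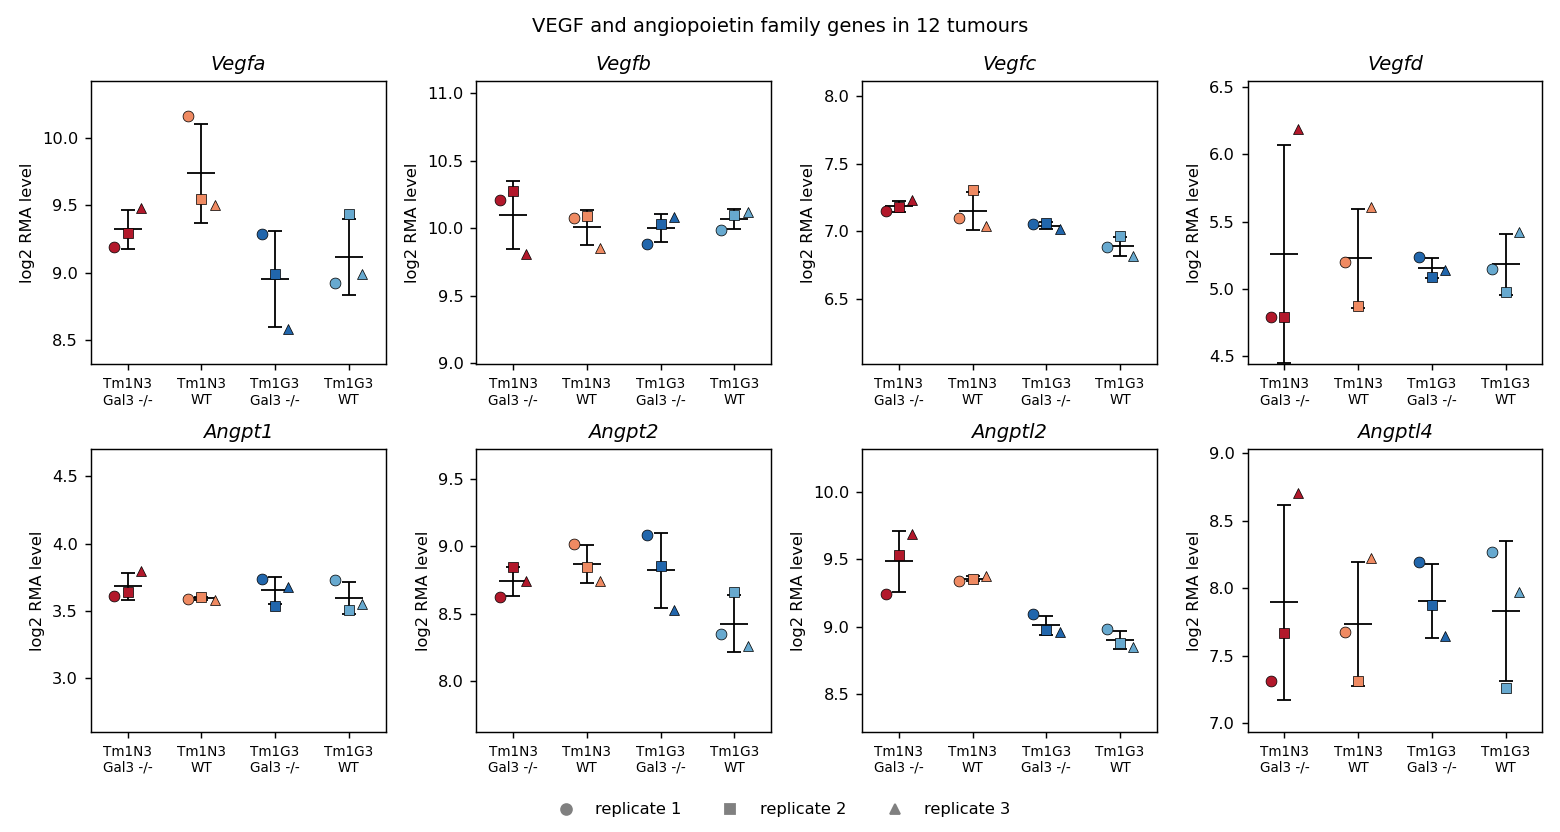
Log2 RMA level (vertical axis, the same span of 2.1 units in every panel) of each of the 8 genes in the 4 groups, with 1 symbol per array and the mean and SD as bars. Angptl2 is the gene whose 6 Tm1N3 arrays all lie above its 6 Tm1G3 arrays, whereas Vegfd and Angptl4 spread widely within groups.

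Angptl2 was the family member that differed most clearly between the tumour lines. Its level was 9.24, 9.53 and 9.68 in Tm1N3 tumours of Gal3 -/- hosts and 9.34, 9.36 and 9.37 in Tm1N3 tumours of WT hosts. It was 9.09, 8.98 and 8.96 in Tm1G3 tumours of Gal3 -/- hosts and 8.98, 8.88 and 8.85 in Tm1G3 tumours of WT hosts. Every Tm1N3 array was thus above every Tm1G3 array. Averaged over hosts, Angptl2 was 1.38-fold higher in Tm1N3 tumours, a log2 difference of 0.46 ± 0.07 (SE, limma, Benjamini-Hochberg adjusted p = 0.00379 over all 1246 probe sets). The difference was 0.47 ± 0.10 in Gal3 -/- hosts (limma, adjusted p = 0.0629) and 0.45 ± 0.10 in WT hosts (limma, adjusted p = 0.0565), neither of which passed the threshold of 0.05. Leaving out Gal3 -/- Tm1N3 replicate 1 took both past it (limma, adjusted p = 0.00695 and 0.0156), and leaving out Gal3 -/- Tm1N3 replicate 3 took the difference in WT hosts past it (adjusted p = 0.0282). Of the 12 fits with 1 array left out, only 1 passed in Gal3 -/- hosts and 2 in WT hosts. In the others the limma adjusted p reached up to 0.288 in Gal3 -/- hosts and 0.224 in WT hosts. The averaged difference passed in all 20 other fits, at adjusted p from 0.000536 to 0.0166, including those without the replicate 3 arrays of Tm1N3 tumours (0.41) and without WT Tm1G3 replicate 1 (0.48). In Affymetrix naming, the suffix of the Angptl2 probe set marks probes shared between transcripts, so its signal may include a related transcript.

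Angptl2 was 1 of 8 members called in the averaged line comparison, 1 higher and 0 lower, where 4.25% of all probe sets were called, 1.28% higher and 2.97% lower in Tm1N3 tumours. Of the 8 members 7 had positive differences, where 51.0% of all probe sets had. Their median difference was 0.13, beside 0.00 over all probe sets. The groups did not overlap for 1 member, Angptl2, where 3.29% of all probe sets had groups apart. Before adjustment 3 members, Vegfa, Vegfc and Angptl2, had p under 0.05, as did 16.4% of all probe sets. In exact two-sided permutation of the line labels within hosts, Angptl2 and Vegfc had p = 0.005, the smallest p that the 400 assignments allow, and 4.65% of all probe sets reached it. Adjusted over all 1246 probe sets, that exact p is 0.107. With the same-numbered arrays of the hosts within a line kept together, 20 assignments remain, the smallest p they allow is 0.1, and Angptl2, Vegfc and Vegfa each had that exact permutation p.

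Vegfa and Vegfc were also higher on average in Tm1N3 tumours, without passing the threshold. Vegfa stood at 9.19, 9.29 and 9.48 in Tm1N3 tumours of Gal3 -/- hosts and at 10.16, 9.54 and 9.51 in Tm1N3 tumours of WT hosts. It stood at 9.29, 8.99 and 8.58 in Tm1G3 tumours of Gal3 -/- hosts and at 8.92, 9.44 and 8.99 in Tm1G3 tumours of WT hosts. The lines did not overlap in WT hosts and did overlap in Gal3 -/- hosts, and a single WT Tm1N3 array held the highest value. Averaged over hosts the difference was 0.49 ± 0.16 (SE), 1.41-fold, with a 95% interval from 0.15 to 0.84 and a limma adjusted p of 0.124. It was 0.37 ± 0.22 in Gal3 -/- hosts and 0.62 ± 0.22 in WT hosts (SE), and these became 0.18 without Gal3 -/- Tm1G3 replicate 3 and 0.41 without WT Tm1N3 replicate 1. The exact permutation p for the averaged difference was 0.015 with arrays shuffled singly and 0.1 with same-numbered arrays kept together.

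Vegfc, the lymphatic growth factor gene, moved over a narrow range. Its level was 7.15, 7.18 and 7.23 in Tm1N3 tumours of Gal3 -/- hosts and 7.10, 7.31 and 7.04 in Tm1N3 tumours of WT hosts. It was 7.05, 7.06 and 7.01 in Tm1G3 tumours of Gal3 -/- hosts and 6.89, 6.96 and 6.82 in Tm1G3 tumours of WT hosts. Within each host the lines lay apart, and across hosts 1 WT Tm1N3 array fell just below 2 Gal3 -/- Tm1G3 arrays. The averaged difference was 0.20 ± 0.05 (SE), 1.15-fold, with a 95% interval from 0.09 to 0.32 (limma, adjusted p = 0.0615). It passed in 2 of 20 other fits, without WT Tm1N3 replicate 3 (adjusted p = 0.0468) and with arrays weighted by their quality (adjusted p = 0.0304). The difference was 0.14 ± 0.07 in Gal3 -/- hosts and 0.26 ± 0.07 in WT hosts (SE), neither past the threshold.

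Vegfb, a ligand of the receptor encoded by Flt1, differed little between the lines. It ranged from 9.81 to 10.28 in Tm1N3 tumours, with a median of 10.08, and from 9.89 to 10.12 in Tm1G3 tumours, with a median of 10.06. The averaged difference was 0.02 (95% interval -0.17 to 0.20; limma, adjusted p = 0.965).

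Vegfd, the other lymphatic growth factor gene, had the largest share of its variation within groups among the members. It was 4.80, 4.79 and 6.19 in Tm1N3 tumours of Gal3 -/- hosts and 5.20, 4.88 and 5.61 in Tm1N3 tumours of WT hosts. It was 5.24, 5.09 and 5.14 in Tm1G3 tumours of Gal3 -/- hosts and 5.15, 4.98 and 5.43 in Tm1G3 tumours of WT hosts. The highest values were those of the replicate 3 arrays of Tm1N3 tumours. The averaged line difference was 0.07 with a 95% interval from -0.45 to 0.59, and it turned to -0.25 without those arrays (limma, adjusted p = 0.939 and 0.208).

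Promoters are shown for the 3 members with the smallest p in the averaged line comparison, Vegfa, Vegfc and Angptl2, together with Vegfd, whose variation lay within groups. Each is the 250 bases before the annotated start in RefSeq (GRCm38.p6), and 5 of the 8 members had an entry. Vegfa had windows for 2 annotated starts, of which that of the upstream start is shown, at chr17:46032378-46032627 (minus strand). The Vegfc window lies at chr8:54077282-54077531 (plus strand), Angptl2 at chr2:33215711-33215960 (plus strand) and Vegfd at chrX:164373272-164373521 (plus strand). Capitals mark the GC box GGGCGG on either strand, where the other strand reads CCGCCC, and the sequence TATAAA wherever it lies in a window.
Vegfa: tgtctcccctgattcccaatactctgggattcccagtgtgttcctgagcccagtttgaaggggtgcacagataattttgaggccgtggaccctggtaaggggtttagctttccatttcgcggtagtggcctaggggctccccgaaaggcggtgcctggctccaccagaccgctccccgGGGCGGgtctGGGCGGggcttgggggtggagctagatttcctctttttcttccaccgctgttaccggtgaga
Vegfc: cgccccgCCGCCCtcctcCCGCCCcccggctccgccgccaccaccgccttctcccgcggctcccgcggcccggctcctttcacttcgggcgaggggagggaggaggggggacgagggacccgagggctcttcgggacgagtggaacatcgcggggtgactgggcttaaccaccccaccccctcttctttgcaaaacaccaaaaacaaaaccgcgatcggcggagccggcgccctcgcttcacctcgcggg
Angptl2: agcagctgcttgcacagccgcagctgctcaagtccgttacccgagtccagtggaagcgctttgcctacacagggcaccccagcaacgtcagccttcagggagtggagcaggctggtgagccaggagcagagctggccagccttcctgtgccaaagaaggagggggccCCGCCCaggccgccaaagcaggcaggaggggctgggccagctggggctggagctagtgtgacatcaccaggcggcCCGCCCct
Vegfd: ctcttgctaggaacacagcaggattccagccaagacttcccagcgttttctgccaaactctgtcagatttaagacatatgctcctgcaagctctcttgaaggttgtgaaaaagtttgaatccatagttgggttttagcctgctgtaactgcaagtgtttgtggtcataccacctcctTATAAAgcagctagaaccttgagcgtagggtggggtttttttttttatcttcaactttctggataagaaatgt
The GC box occurred in the Vegfa window shown at -72 and -62, in the Vegfc window at -243 and -232 and in the Angptl2 window at -83 and -8, counted back from the start. It was not in the Vegfd window, and 32.7% of all 32851 mouse windows of this length held it. The Vegfd window held TATAAA at -73, as did 12.4% of all windows somewhere. Sequence beyond the 250 bases was not searched for any motif, so sites farther upstream would be missed. The hypoxia core motifs ACGTG and GCGTG, also searched on both strands, were in none of the 4 windows shown, and 16.6% and 28.2% of all windows held them. They were in windows not shown: the other Vegfa window held ACGTG at -211, GCGTG at -218 and a GC box at -158. That window lies downstream of the upstream start, within the sequence transcribed from it, so these hits need not be promoter sites. The Vegfb window held GCGTG at -237 and -81. Of the E-box forms, CACGTG, whose last letters are the first hypoxia core, occurs in 6.02% of all windows and the variant CATGTG in 12.3%, and both were searched on each strand and found in none of the 4 shown. The Vegfb window held CATGTG at -69. None of the 4 shown held the AP-1 motif TGANTCA, which 6.75% of all windows held. GC content was 59.2%, 71.6% and 66.8% for Vegfa, Vegfc and Angptl2 and 42.4% for Vegfd, beside a median of 52.4%.

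**Figure D2:**
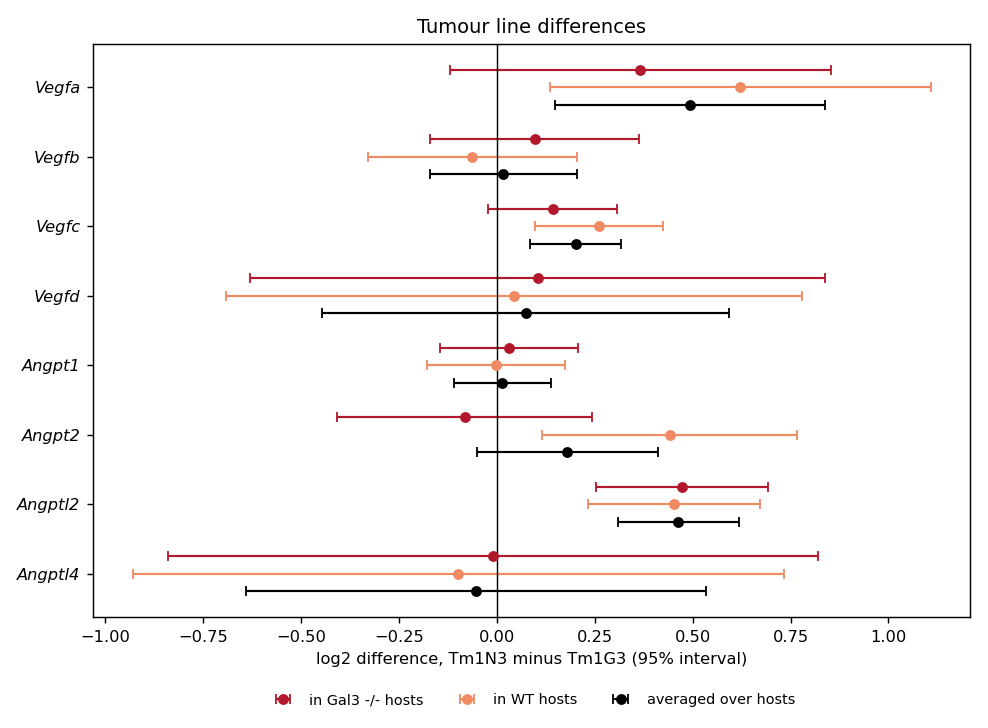
Log2 difference, Tm1N3 minus Tm1G3 (horizontal axis), of each gene in Gal3 -/- hosts, in WT hosts and averaged over hosts, with limma's 95% intervals. Angptl2 lies near 0.46 in all 3 rows, and Angpt2 lies at -0.08 in Gal3 -/- hosts and 0.44 in WT hosts.

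Angpt1, the vessel-steadying ligand, ran from 3.51 to 3.80 over the 12 arrays, a low signal, with 85.3% of all probe sets brighter. Whether the Angpt1 signal lay above background was not examined, so its small differences may reflect little signal. Its averaged line difference was 0.01 with a 95% interval from -0.11 to 0.14, and its probe set too carries the suffix for shared probes. Angpt2, the vessel-destabilising ligand, stood at 8.63, 8.85 and 8.74 in Tm1N3 tumours of Gal3 -/- hosts and at 9.02, 8.84 and 8.74 in Tm1N3 tumours of WT hosts. It stood at 9.08, 8.85 and 8.53 in Tm1G3 tumours of Gal3 -/- hosts and at 8.35, 8.66 and 8.26 in Tm1G3 tumours of WT hosts. The Tm1G3 tumours of WT hosts thus held the lowest group mean, 8.42 ± 0.21 (SD, n = 3). In WT hosts the lines did not overlap, with a difference of 0.44 ± 0.15 (SE, limma, adjusted p = 0.190), and in Gal3 -/- hosts they overlapped, with a difference of -0.08 ± 0.15 (SE, limma, adjusted p = 0.976).

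Angptl4, the lipoprotein lipase inhibitor gene, spread as widely as Vegfd. It was 7.32, 7.67 and 8.71 in Tm1N3 tumours of Gal3 -/- hosts and 7.67, 7.31 and 8.22 in Tm1N3 tumours of WT hosts. It was 8.20, 7.87 and 7.65 in Tm1G3 tumours of Gal3 -/- hosts and 8.27, 7.26 and 7.97 in Tm1G3 tumours of WT hosts. All 4 groups overlapped. The averaged line difference was -0.05 with a 95% interval from -0.64 to 0.53. It was -0.38 without the replicate 3 arrays of Tm1N3 tumours and 0.05 without WT Tm1G3 replicate 1.

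Within single hosts, 0 of 8 members passed in either direction by limma. In Gal3 -/- hosts 0.722% of all probe sets were called, and 1 member, Angptl2, had an unadjusted p under 0.05, where 9.47% of all probe sets had. The lines lay apart for 2 members there, Vegfc and Angptl2, where 13.7% of all probe sets had lines apart. In WT hosts 0.883% of all probe sets were called. Unadjusted p was under 0.05 there for 4 members, Vegfa, Vegfc, Angpt2 and Angptl2, where 13.1% of all probe sets had such a p. The same 4 had lines that did not overlap, where 16.9% of all probe sets had.

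Host genotype changed no member past the threshold in limma, and no probe set of the array was called in a host comparison (0.0% of 1246 in Tm1N3 tumours, in Tm1G3 tumours and averaged over lines). Vegfa was the member with the largest averaged host difference. In Tm1N3 tumours it averaged 9.32 ± 0.14 in Gal3 -/- hosts and 9.74 ± 0.37 in WT hosts (SD, n = 3 each). The difference was -0.42 ± 0.22 (SE, limma, adjusted p = 1.00), and the groups did not overlap. Without WT Tm1N3 replicate 1 it was -0.20. In Tm1G3 tumours Vegfa differed by -0.16 ± 0.22 (SE), or by 0.03 without Gal3 -/- Tm1G3 replicate 3, and the groups overlapped. Averaged over lines the value was -0.29 (95% interval -0.63 to 0.06), and it was -0.18 without WT Tm1N3 replicate 1.

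Averaged over lines, the hosts lay apart for 0 members, where 0.562% of all probe sets had hosts apart. In Tm1N3 tumours they lay apart for 2 members, Vegfa and Angpt1, where 7.62% of all probe sets had hosts apart. In Tm1G3 tumours they lay apart for 1 member, Vegfc, with a difference of 0.15 ± 0.07 (SE, limma, adjusted p = 0.764), where 12.4% of all probe sets had hosts apart. Angpt2 averaged 8.82 ± 0.28 in Gal3 -/- and 8.42 ± 0.21 in WT hosts of Tm1G3 tumours (SD, n = 3 each), a difference of 0.40 ± 0.15 (SE, limma, adjusted p = 0.752) with overlapping groups. At an unadjusted p under 0.05, host comparisons held 0 members in Tm1N3 tumours, 1 in Tm1G3 tumours (Angpt2) and 0 averaged over lines. All probe sets gave 4.33%, 6.18% and 6.26% in these comparisons.

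**Figure D3:**
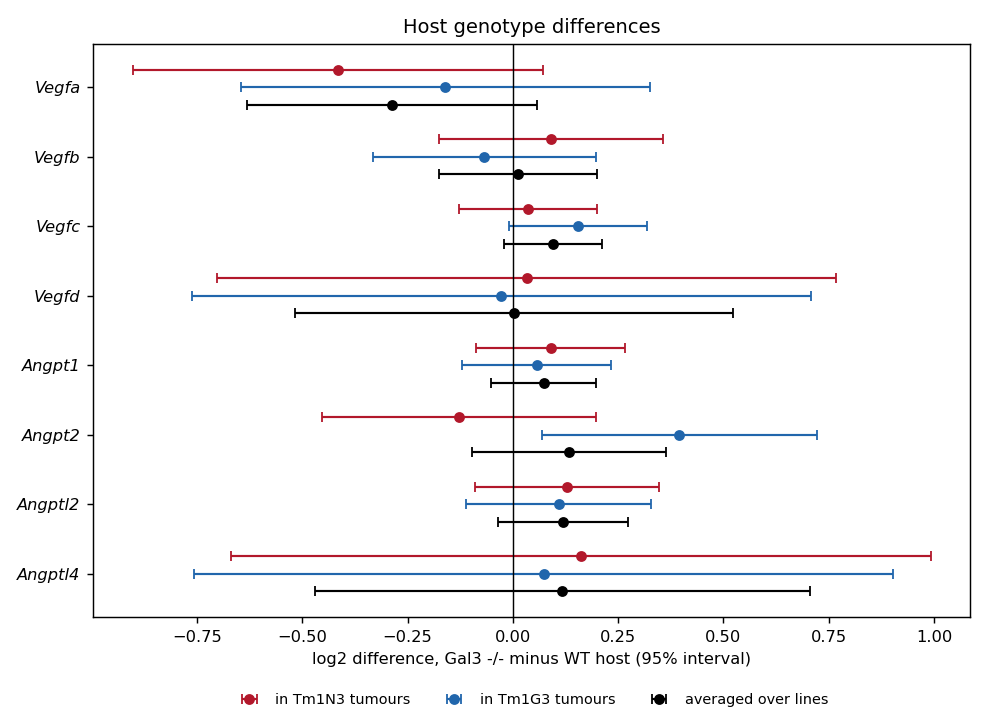
Log2 difference, Gal3 -/- minus WT host (horizontal axis), of each gene in Tm1N3 tumours, in Tm1G3 tumours and averaged over lines, with limma's 95% intervals. All averaged intervals include 0, and Angpt2 in Tm1G3 tumours, at 0.40, has an interval that does not.

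Whether the line difference itself differed between hosts was tested as an interaction. Angpt2 had the largest, -0.52 ± 0.21 (SE), line difference in Gal3 -/- minus that in WT hosts, with a limma p of 0.0296 before and 0.996 after adjustment. It was the 1 member with an unadjusted p under 0.05, which 2.81% of all probe sets had, and 0 of 8 members and 0.0% of all probe sets passed. Without any 1 array the Angpt2 interaction ran from -0.67 to -0.39. For Angptl2 the interaction was 0.02 with a 95% interval from -0.29 to 0.33, and for Vegfa -0.26 with an interval from -0.94 to 0.43 (-0.04 without WT Tm1N3 replicate 1).

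The members therefore fell into kinds by where their variation lay over the 12 arrays. The line accounted for 79.7% of the sum of squares of Angptl2, 56.9% of that of Vegfc and 41.8% of that of Vegfa, beside a median of 7.65% over all probe sets. For Angpt2 the interaction held 31.1% and the line 14.7%. Differences within groups held 98.9% for Vegfd, 97.5% for Angptl4 and 90.6% for Vegfb, beside a median of 70.6% over all probe sets. These shares are descriptions of the same arrays and add no test.

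Across the 12 arrays, 28 pairs of members were compared. The permutations for these correlations and for the marker correlations below shuffled all 12 arrays freely, keeping neither groups nor same-numbered arrays together. Same-numbered arrays of the hosts within a line deviated together, so these permutation p-values may be too small. Vegfd and Angptl4 went together (Pearson r = 0.84, permutation p = 0.00033, adjusted p = 0.00924 over the 28 pairs; Spearman rho = 0.79, permutation p = 0.00316, adjusted p = 0.0466). After the 2 arrays farthest from the Vegfd median were left out, r was 0.68, and for deviations from group means it was 0.86. Vegfb went against Vegfd (r = -0.80, permutation adjusted p = 0.00994; rho = -0.76, adjusted p = 0.0466) and against Angptl4 (r = -0.78, permutation adjusted p = 0.0167; rho = -0.75, adjusted p = 0.0466), at -0.59 and -0.61 without the 2 farthest arrays. The relation of Vegfb and Vegfd was -0.93 among the 6 Tm1N3 arrays and 0.02 among the 6 Tm1G3 arrays, so it did not hold within Tm1G3 tumours. Vegfc and Angptl2 correlated at r = 0.80 (permutation adjusted p = 0.0160; rho = 0.79, adjusted p = 0.0466), but at 0.25 for deviations from group means. Their r was 0.32 among Tm1N3 and 0.67 among Tm1G3 arrays. How far this relation rested on the difference between the lines was not tested. Vegfa and Angpt2, by contrast, had r = 0.62 over all arrays (permutation adjusted p = 0.122) and 0.89 for deviations from group means.

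Marker genes of other cell types moved with Vegfd, Angptl4 and Vegfb. The 7 marker lists with at least 3 measured genes were set against the 8 members, which makes 56 relations of a member with a list's mean log2 level. By permutation with adjustment over the 56, 12 passed on Pearson's r, 12 on Spearman's rho and 9 on both. The share of all probe sets that correlate as strongly with these lists was not computed. These counts therefore do not show whether the members stand out. Vegfd went up with the 4 fibroblast genes Dcn, Lum, Pdgfra and Bgn (r = 0.89, permutation adjusted p = 0.00112; rho = 0.89, adjusted p = 0.0063), and all 4 correlated positively with it, at r from 0.78 to 0.94. Without the 2 arrays farthest from the list's median r was 0.84, and it was 0.93 among Tm1N3 and 0.82 among Tm1G3 arrays. Angptl4 went up with the 6 macrophage and monocyte genes Adgre1, Csf1r, Mrc1, Siglec1, Clec10a and Ccr2 (r = 0.90, permutation adjusted p = 0.00168; rho = 0.85, adjusted p = 0.00862), all 6 positively, at r from 0.64 to 0.91. Without the 2 farthest arrays r was 0.85, and it was 0.93 among Tm1N3 and 0.90 among Tm1G3 arrays.

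Several lists passed with the same member. Vegfd also went with the macrophage list (r = 0.84, permutation adjusted p = 0.00168). Angptl4 also went with the endothelial list (r = 0.82, permutation adjusted p = 0.00796, 5 of 6 genes positively) and with 3 platelet genes, Pf4, Ppbp and Selp (r = 0.85, permutation adjusted p = 0.00455). Its relation with the fibroblast list passed on r (0.85, permutation adjusted p = 0.00455) and not on rho (0.69, adjusted p = 0.0660). That with the 4 neutrophil genes passed on rho (0.88, permutation adjusted p = 0.0063) and not on r (0.58, adjusted p = 0.121), all 4 positively. Without the 2 arrays farthest from the neutrophil list's median r was 0.88. The main axis of variation over the arrays (principal component 1) held 37.2% of the variance. It correlated at 0.92 with Angptl4, -0.82 with Vegfb and 0.74 with Vegfd, and between -0.34 and 0.60 with the other members. How far the relations with single lists are separate from this shared axis was not tested.

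Vegfb ran against the platelet genes (r = -0.86, permutation adjusted p = 0.00322; rho = -0.92, adjusted p = 0.00336), at -0.87 among Tm1N3 and -0.90 among Tm1G3 arrays, although 1 of the 3 genes correlated positively with it. It also ran against the mean of the endothelial list (r = -0.72, permutation adjusted p = 0.0398), although 2 of its 6 genes correlated positively with it, at up to 0.67. It ran against the macrophage list too (r = -0.84, permutation adjusted p = 0.00455). Against the neutrophil list it passed on rho (-0.83, permutation adjusted p = 0.0107) and not on r (-0.40, adjusted p = 0.455). Among Tm1G3 arrays its relation with the macrophage list was -0.40, and that with the fibroblast list, -0.85 over all arrays, was -0.32. Angptl2 went with the 3 pericyte and smooth muscle genes Pdgfrb, Cspg4 and Mcam (r = 0.79, permutation adjusted p = 0.0170; rho = 0.84, adjusted p = 0.00888), at 0.88 among Tm1N3 and 0.96 among Tm1G3 arrays. The single genes correlated with it at r from 0.39 to 0.91, the highest being Mcam. Mcam is also a gene of melanoma cells and was itself higher in Tm1N3 tumours. The relation of Angptl2 with the list was 0.88 for deviations from group means, and which cells carried it was not tested.

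The fibroblast mean lay between 6.82 and 9.06 in Tm1N3 tumours of Gal3 -/- hosts and between 7.51 and 8.87 in Tm1N3 tumours of WT hosts. It lay between 7.45 and 8.34 in Tm1G3 tumours of Gal3 -/- hosts and between 7.61 and 8.37 in Tm1G3 tumours of WT hosts. The macrophage mean ran from 6.15 to 7.88 in Tm1N3 tumours of Gal3 -/- hosts and from 6.66 to 7.65 in Tm1N3 tumours of WT hosts, against 6.95 to 7.33 in Tm1G3 tumours of Gal3 -/- hosts and 6.72 to 7.64 in Tm1G3 tumours of WT hosts. The part of these cells in the spread of Vegfd, Angptl4, Vegfb and Angptl2 was not tested.

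**Figure D4:**
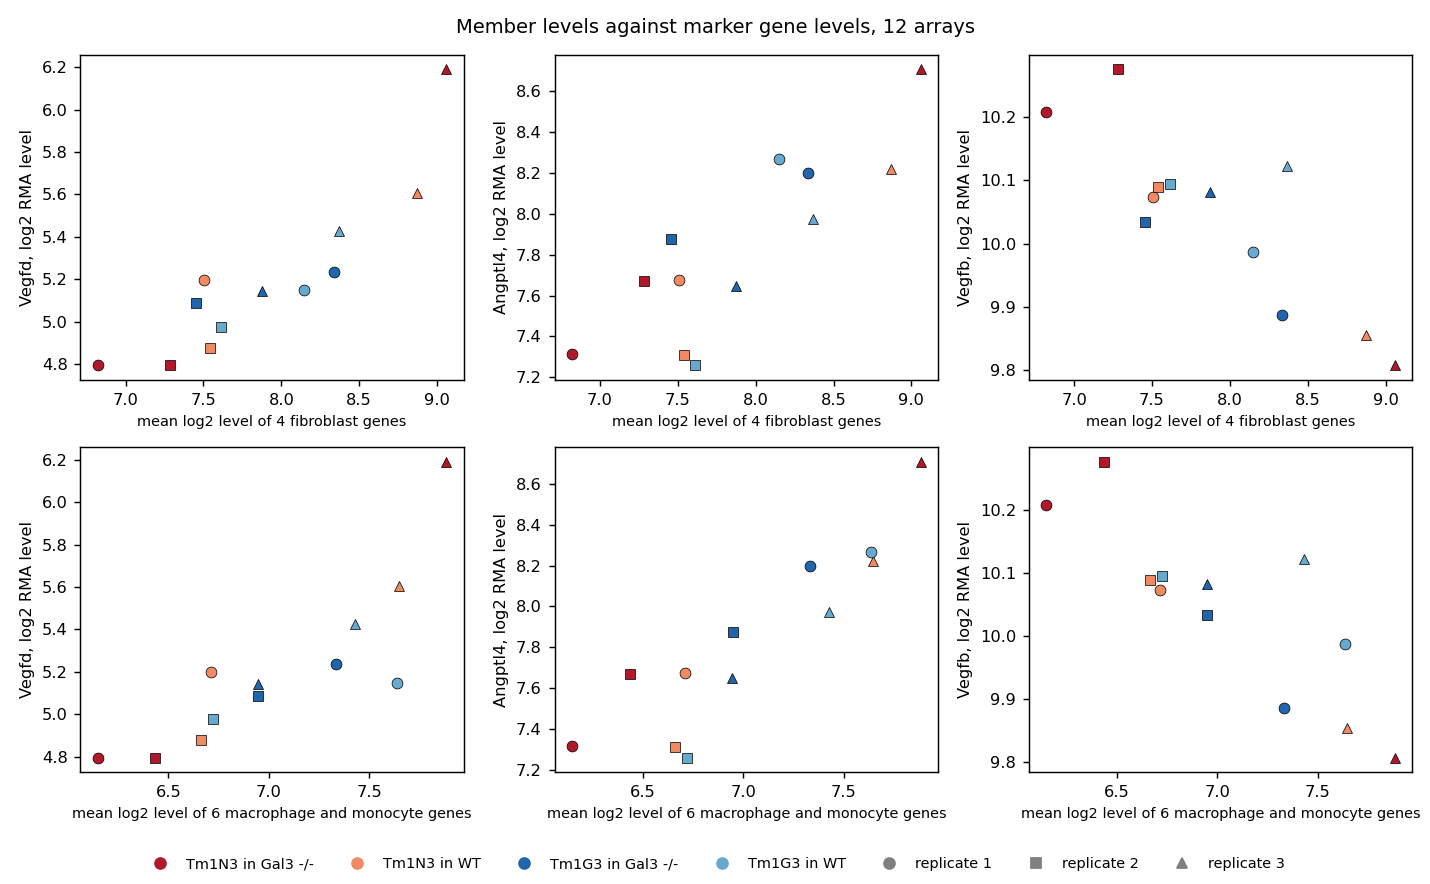
Log2 RMA level of Vegfd, Angptl4 and Vegfb (vertical axes) against the mean log2 level of 4 fibroblast genes (upper row) and 6 macrophage and monocyte genes (lower row), with 1 point per array. Vegfd and Angptl4 rise and Vegfb falls along both axes, and the replicate 3 arrays of Tm1N3 tumours lie at the fibroblast-rich end.

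For each member the 3 probe sets with the most similar profile over the 12 arrays were found among 962 named probe sets of other genes. For Angptl2 these were Mcam (r = 0.91), an adhesion gene of melanoma and vessel-wall cells, the Wnt receptor gene Fzd2 (0.87) and the lysosomal gene Galc (0.85). For Vegfc they were Mcoln3 (0.90), an endosomal channel gene, and the nucleotide sugar transporter genes Slc35b3 (0.88) and Slc35b1 (0.84). For Vegfa they were the hyaluronidase gene Hyal1 (0.89), the O-GlcNAc transferase gene Ogt (0.86) and the Golgi gene Cog3 (0.84), and for Angpt2 the B cell surface gene Cd72 (0.91), Slc35b1 (0.90) and Slc35b3 (0.86). Vegfd was nearest to Bgn (0.94), a matrix proteoglycan gene, and to 2 probe sets of the growth factor receptor gene Egfr (0.94 each). Angptl4 was nearest to the cytokine receptor gene Csf2rb2 (0.96) and the leukocyte surface genes Cd48 (0.94) and Il7r (0.92). Vegfb was nearest to Hnrnpul2 (0.94), Ube2g1 (0.87) and Neu3 (0.85), and Angpt1, with its narrow range, to Pdgfrb (0.79), Notch1 (0.71) and Vcan (0.70). These are the highest values of many on shared arrays and carry no test.

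Other genes of the pathway were read from lists of known genes. No probe set was named for any of the 7 listed VEGF and angiopoietin receptors and co-receptors, of the 18 hypoxia-responsive genes or of the 7 adipocyte genes, so these were not analysed here. Of 5 further angiopoietin and angiopoietin-like genes, 0 passed by limma in the averaged line comparison, with a median difference of -0.07, and Angptl6 (-0.22 ± 0.12, SE) and Angptl1 (-0.19 ± 0.08, SE) had the largest values. Of 14 other angiogenic growth factors Fgf1, a growth factor for endothelial and other cells, fell in Tm1N3 tumours, 0 rose and 13 did not pass, with a median of 0.01. Fgf1 averaged 6.02 ± 0.20 in Tm1N3 and 6.55 ± 0.07 in Tm1G3 tumours (SD, n = 6 each), 1.44-fold lower (limma, adjusted p = 0.00808). The chemokine gene Cxcl12 (-0.48 ± 0.22, SE) did not pass. Of 4 angiogenesis inhibitors 0 passed, with a median of -0.05, and the chemokine gene Cxcl9 (-0.49 ± 0.32, SE) and the endostatin precursor gene Col18a1 (0.08 ± 0.15, SE) had the largest values.

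Cell type markers are given beside the line differences. Of 6 endothelial markers Icam2, an adhesion molecule gene of endothelium and leukocytes, fell in Tm1N3 tumours (-0.40 ± 0.08, SE, limma, adjusted p = 0.0215, and 0.0545 with a random replicate block). It also lost its call without WT Tm1N3 replicate 2, WT Tm1N3 replicate 3 or WT Tm1G3 replicate 3, at adjusted p up to 0.0558. The other 5 did not pass, with Emcn at 0.23 ± 0.20 (SE). The list's median was 0.02, beside 0.00 over all probe sets. Of 3 pericyte and smooth muscle markers Mcam rose (0.66 ± 0.15, SE, limma, adjusted p = 0.0336), passing in 8 of 20 other fits and not with a replicate block (adjusted p = 0.0674 and 0.0572). With 1 array left out it kept its call only where that array was replicate 1 of Gal3 -/- Tm1N3, Gal3 -/- Tm1G3 or WT Tm1G3 tumours, and adjusted p otherwise reached up to 0.0913. Cspg4 (0.09 ± 0.10, SE) and Pdgfrb did not pass. Of 6 macrophage (median -0.29), 4 neutrophil (-0.21), 4 fibroblast (-0.01) and 3 platelet markers (-0.06) 0 passed. Their largest values were Adgre1 (-0.54 ± 0.43) and Csf1r (-0.37 ± 0.38), Il1b (-0.93 ± 0.73), Dcn (-0.51 ± 0.47) and Pdgfra (0.06 ± 0.37), and Pf4 (-0.06 ± 0.51) and Ppbp (-0.06 ± 0.75), with SE. Without WT Tm1G3 replicate 1 these were -0.15 for Il1b, -0.21 for Adgre1, -0.23 for Csf1r, 0.08 for Pf4 and 0.37 for Ppbp.

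Of 4 T and NK cell markers the chemokine gene Ccl5 fell (-0.65 ± 0.12, SE, limma, adjusted p = 0.0113) and 3 did not pass, with Klrk1 at 0.08 ± 0.06 (SE). Both measured melanocyte lineage genes differed, the channel gene Mcoln3 rising (0.93 ± 0.13, SE, limma, adjusted p = 0.00301) and the stem cell factor receptor gene Kit falling (-0.99 ± 0.15, SE, limma, adjusted p = 0.00379) in Tm1N3 tumours. The melanocyte markers Mlana, Pmel, Tyr, Tyrp1, Dct, Mitf and Sox10 had no named probe set, so the tumour label could be checked only on Kit and Mcoln3. In single hosts 1 list gene passed in Gal3 -/- hosts, Kit, and 1 in WT hosts, Mcoln3, and 0 passed in the host comparisons or the interaction. The part of other cells in the Angptl2, Vegfa and Vegfc differences was not tested.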

How the data were processed

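Per the labels' protocols, Trizol RNA of 12 samples was made into biotin-marked cRNA and read on Affymetrix chips. The deposited values are log2 levels, which the authors made with RMA, which corrects background, equalises array distributions and sums probes, per the submitters' processing notes. The software version and genome build are not given in the sources used here. Levels ran from 2.14 to 13.9, with array medians within 0.0945 of each other, and were used as deposited. No scanner files were used, so signal over background was not examined.

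Gene names came from the RefSeq accession inside each probe set's identifier, matched without its version to a mouse gene table of assembly GRCm38.p6, in which 963 of 1246 matched 1 symbol and 283 stayed unnamed. All 12 arrays entered 1 linear model with a mean per group (limma 3.58.1, lmFit and eBayes, in R 4.3.3), with 8 residual and 2.39 prior degrees of freedom. Each of 7 comparisons was adjusted over its 1246 probe sets (Benjamini-Hochberg, threshold 0.05). Single members were also tested by exact permutation of line labels within hosts, also with same-numbered arrays kept together. Correlations were tested by 100000 permutations of single arrays over all groups, without keeping same-numbered arrays together. The limma fit was tested on simulated data for the averaged line comparison only, with noise independent between arrays. The simulation therefore does not cover arrays that deviate together, the permutations or the correlations. Alternatives were quantile normalization again, median centring, leaving out the dimmest 25% of probe sets, a trended and robust prior, array weights, replicate blocks, the compared groups alone, and each array left out.

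Same-numbered arrays of the hosts within a line deviated together (correlations of deviations from group means 0.184 to 0.752 for Tm1N3 and 0.249 to 0.308 for Tm1G3 tumours, all above 0.1), so numbers were taken to pair hosts within a line. This rests on the data, since no label explains the numbering. Between the lines they ran from -0.660 to 0.544.

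Members and lists were chosen with earlier results of these data known. Named genes are the 8 members, Lgals3, list genes past the threshold, the 2 largest averaged line differences of each list and the 3 nearest profiles per member, of which 1 list gene is not reported here.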

Additional observations from a re-analysis of the deposited data

How the results depend on the processing

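Among the 8 members, Angptl2 kept its direction and its call averaged over hosts in all 20 other fits, with differences from 0.41 to 0.52. The number of members past the threshold, 1 averaged over hosts, became 2 with array weights and ran from 1 to 2 with 1 array left out. In Gal3 -/- hosts 0 members passed, 1 did with array weights and 1 with arrays centred on their medians, and 0 to 1 with 1 array left out. In WT hosts 0 passed, 1 did with array weights, and 0 to 1 with 1 array left out. The member concerned was Vegfc in the averaged and Angptl2 in the single-host comparisons. Neither replicate block, as a random block of the number within a line or as a fixed block over all groups, changed the call of a member: Angptl2 averaged over hosts had adjusted p = 0.0106 and 0.0121. Of the list genes named, Icam2 lost its call with the random block (adjusted p = 0.0545), Mcam with both (0.0674 and 0.0572), and no other call changed with a block. Fgf1 lost its call after quantile normalizing again (0.0547). Leaving out both replicate 3 arrays of Tm1N3 tumours, and permuting with same-numbered arrays kept together, were chosen after seeing the data. Uncalled differences near 0 changed sign in some fits: averaged over hosts this was so for Vegfb, Angpt1 and Angptl4 in 5 fits each and Vegfd in 4, and for Vegfa, Vegfc and Angpt2 in 0 of 20. Probe sets called over the whole array numbered 53 averaged over hosts (32 to 131), 9 in Gal3 -/- hosts (4 to 55) and 11 in WT hosts (2 to 48), the highest with array weights. The cause of these changes was not tested. The host and interaction comparisons gave 0 calls in every fit. Using the mean of all probe sets of a gene was not run for members, which have 1 each. No more than 3 arrays a group limits every difference.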
